A study of Mus musculus with 6 samples.

Results

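The 10 genes described here mark 3 kinds of non-parenchymal liver cell, the cells that line or flank the sinusoids between plates of hepatocytes. Stab1, Stab2, Oit3, Pecam1 and Fcgr2b mark sinusoidal endothelial cells, Csf1r and Spi1 mark macrophages, and Lrat, Pdgfra and Col1a1 mark stellate cells and fibroblasts. Every peak that carried one of these symbols in the deposited table was taken, which gave 14 of 22412 peaks in the table and 10 of 10709 gene symbols. The assay was ATAC-seq of nuclei from 6 mouse liver samples, where a transposase inserts sequencing adapters into accessible DNA. The control group was 3 samples labelled Ad-EGFP, with the genotype "control", and the other group was 3 samples labelled Ad-Dyrk1b, with the genotype "Dyrk1b overexpression". All 6 thus carried a label for an adenovirus, for the fluorescent protein EGFP in controls and for the kinase Dyrk1b in the others. The labels used here give no promoter for either transgene, no strain, age, dose or time, and do not tie replicates to different mice, so every p-value below rests on a spread that may be technical.

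Sinusoidal endothelial cells are fenestrated, lack a basement membrane and clear macromolecules from blood through scavenger receptors such as the stabilins. Liver macrophages, most of them Kupffer cells, depend on signals through the CSF1 receptor and on the transcription factor PU.1, the product of Spi1. Stellate cells store vitamin A as retinyl esters, made by the enzyme LRAT, and when activated they deposit fibrillar collagen. The nuclei came from whole liver, in which hepatocytes are the bulk of the tissue, so a lower or higher value at a marker peak cannot tell fewer or more cells of a type from less or more open chromatin per cell.

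Each library had between 762633 and 1267934 reads in peaks, with the most in Dyrk1b library 3, and the median peak held 26 to 47 reads. The 14 peaks held 4 to 133 reads each per library. Levels are TMM-scaled CPM, where the total is the reads in peaks, as mean ± SD over 3 libraries, and changes as log2 of Dyrk1b over control ± SE from edgeR's quasi-likelihood fit over all peaks. Levels of different peaks are compared only on the deposited RPKM scale, which divides by peak length. As a check of the tissue, 8 of 14 hepatocyte marker genes had a peak in the table and 6 did not, among them Ttr and Cps1. The 10 peaks had a median of 2.42 RPKM and ran from 1.59 RPKM at 1 of the 2 peaks of the fibrinogen gene Fgb to 3.40 RPKM at the albumin gene Alb.

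The Lrat peak was the 1 member peak that spanned a transcription start, and the sequence before that start is shown for this reason. The peak (chromosome 3, 82811040 to 82811392) reached from 112 bases before to 240 bases after the deposited start and was classed as 5′ UTR. The 250 bases before the RefSeq start of Lrat, on GRCm38.p6 at chr3:82903975-82904224, minus strand, are given 5′ to 3′. Capitals mark matches on either strand to the TATA motif (TATAA), the GC box (GGGCGG) and the CCAAT box (CCAAT), which do not overlap each other.
Lrat: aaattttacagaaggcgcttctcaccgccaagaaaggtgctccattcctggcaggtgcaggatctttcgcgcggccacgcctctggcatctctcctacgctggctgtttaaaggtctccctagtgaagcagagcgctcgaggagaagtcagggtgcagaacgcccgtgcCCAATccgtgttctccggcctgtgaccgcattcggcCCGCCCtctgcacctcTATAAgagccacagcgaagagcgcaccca
The TATA motif began 29 bases before the start, the GC box, on the other strand, 45 bases before it, and the CCAAT box 81 bases before it, so all 3 lie in the 112 bases that the peak covers if the deposited and RefSeq starts are the same base. The deposited gene is 11395 bases long and the RefSeq gene 11393. Among 32841 RefSeq promoter windows of this length, 22.8% held the TATA motif, 32.7% the GC box and 33.9% the CCAAT box on either strand. The table held 5 of the 10 genes, and the Lrat window had 18 CpG sites and 59.2% G+C, against 3 CpG sites and 53.2% in Stab2, 4 and 54.4% in Pdgfra, 5 and 57.2% in Stab1, and 5 and 45.2% in Fcgr2b. Lrat had the most CpG sites of the 5. It was also the 1 of them with a peak over its start, and a link between these was not tested. These matches are descriptions of the letters in the window.

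Most member peaks lay inside gene bodies. By the deposited annotation 12 of the 14 were intronic, 1 was exonic and 1 was in a 5′ UTR, and 0 were classed as promoter. With a promoter peak taken as 1 within 3 kb of a start, 3 of 14 qualified (21.4%), those at Oit3, Lrat and Col1a1, against 43.9% of all peaks tested. The peak nearest outside this limit was that in intron 1 of Fcgr2b, at 3017 bases. Of the 10 genes, 7 had 1 peak, Fcgr2b and Spi1 had 2 each and Pecam1 had 3. Per kilobase, the highest level was at Pecam1 intron 1 (mean of 2.57 RPKM over 6 libraries, above 95.8% of peaks), followed by Spi1 intron 2 (2.08) and Stab1 intron 11 (1.92), and the lowest were at Lrat (1.07, above 8.33% of peaks) and Pdgfra intron 1 (1.27). The median member stood at 1.72 RPKM and the median of all peaks tested at 1.65.

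No member peak passed the threshold. Of the 14, all of which passed the filter on low counts, 0 had an adjusted p under 0.05 by edgeR, where 0.0317% of the 22051 peaks tested did, and adjusted p ran from 0.288 to 1. At an unadjusted p under 0.05 there were 2, or 14.3% of the members against 14.2% of all peaks. Of these 1 was higher, as were 6.44% of all peaks, and 1 lower, as were 7.72%. limma-trend also called 0 and gave 3 at an unadjusted p under 0.05. DESeq2 called 0, gave 1 at an unadjusted p under 0.05 and gave no adjusted p for 12 of the 14. In TMM-scaled CPM the groups did not overlap at 3 of 14 (21.4%), at Stab2, Csf1r and Lrat, each higher with Dyrk1b. This was so at 19.5% of all peaks in either direction and at 9.53% in that direction. In deposited RPKM the groups overlapped at Stab2 and were still apart at Csf1r and Lrat. Log2 changes were above 0 at 10 of 14 peaks, against 50.5% of all peaks, 56.2% of peaks beyond 3 kb from a start and 43.1% of promoter peaks. The median of the members was 0.17 and that of all peaks 0.00.

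**Figure D1:**
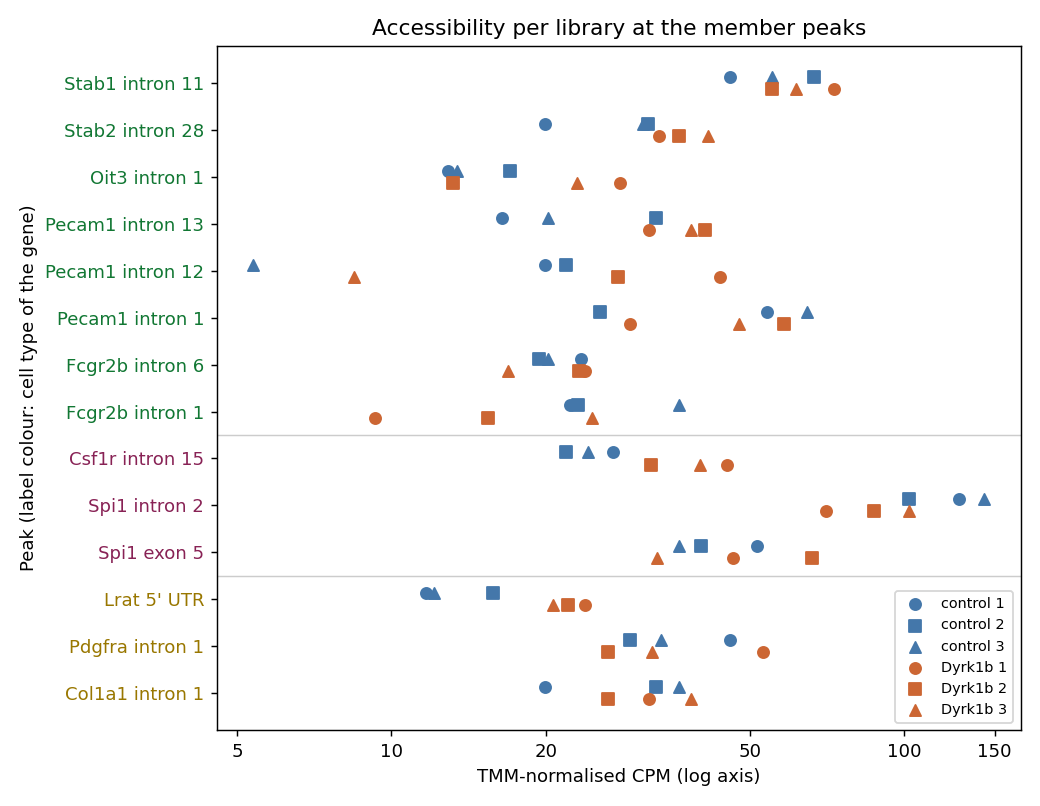
TMM-normalised CPM (log axis) of each library at the 14 peaks, with label colours for sinusoidal endothelial (green), macrophage (purple) and stellate and fibroblast genes (ochre), and marker shapes for libraries 1 to 3. Control and Dyrk1b points are apart at Stab2, Csf1r and Lrat and interleave or touch at the other 11 peaks.

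Among the sinusoidal endothelial genes, the scavenger receptor genes Stab1 and Stab2 had 1 peak each, deep in the gene. The peak in intron 11 of 68 of Stab1 (chromosome 14, 30882280 to 30882930) held 45.7, 66.8 and 55.1 CPM in controls 1, 2 and 3 and 73.0, 55.1 and 61.4 CPM in Dyrk1b libraries 1, 2 and 3. These ranges overlapped over most of their length, and the log2 change was 0.17 ± 0.25 with a 95% interval from -0.33 to 0.67, so a change of 2-fold lay outside it.
At intron 28 of 68 of Stab2 (chromosome 10, 86759472 to 86759904), which encodes a receptor for hyaluronan, controls held 19.9, 31.6 and 30.9 CPM and Dyrk1b libraries 33.2, 36.4 and 41.5 CPM. In CPM all 3 Dyrk1b libraries were above all controls, by little against control 2, and the mean went from 27.5 ± 6.54 to 37.0 ± 4.18 CPM. In deposited RPKM Dyrk1b library 1, at 1.26, stood among the controls, at 1.02, 1.35 and 1.38. The log2 change was 0.44 ± 0.33 (adjusted p = 0.536 by edgeR), and it was 0.25 without control 1, the lowest library.

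Oit3, which encodes a secreted protein with a zona pellucida domain, had a peak in intron 1 of 8, 2188 bases from its start (chromosome 10, 59275283 to 59275541). Controls held 12.9, 17 and 13.4 CPM and Dyrk1b libraries 27.9, 13.2 and 23.0 CPM, so that Dyrk1b library 2 stood among the controls. The log2 change was 0.55 ± 0.48 (interval -0.41 to 1.52), 0.80 without Dyrk1b 2, 0.36 without Dyrk1b 1 and 0.25 after loess normalization.

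Pecam1 encodes CD31, an adhesion molecule at the junctions of endothelial cells that platelets and leukocytes also carry, and it had 3 peaks. In intron 13 of 13 (chromosome 11, 106568722 to 106569098) controls held 16.4, 32.8 and 20.2 CPM and Dyrk1b libraries 31.8, 40.8 and 38.4 CPM. Control 2 stood among the Dyrk1b libraries, and the log2 change of 0.68 ± 0.35 (adjusted p = 0.361 by edgeR) was 1.03 without it and 0.48 without control 1.
In intron 12 of 13, close by (106570753 to 106570995), controls held 19.9, 21.9 and 5.38 CPM and Dyrk1b libraries 43.8, 27.6 and 8.45 CPM. Library 3 of each group was far below the other two, with 4 and 11 reads, and the log2 change of 0.67 ± 0.48 ranged from 0.13 without Dyrk1b 1 to 1.15 without Dyrk1b 3.
The peak in intron 1 of 15 (106619221 to 106619614) is placed on a longer transcript and lies 13.1 kb upstream of the start of the transcript that carries the other 2. There, controls held 53.9, 25.5 and 64.5 CPM and Dyrk1b libraries 29.2, 58.4 and 47.6 CPM, with 1 low library in each group. The log2 change was -0.07 ± 0.29, and it turned positive when scaled by the totals used for RPKM (0.12) and without control 1, control 3 or Dyrk1b 1.

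Fcgr2b encodes the inhibitory receptor for IgG, which takes up immune complexes in sinusoidal endothelium and is also made by B cells and macrophages. Its peak in intron 6 of 7 (chromosome 1, 170789894 to 170790144) held 23.4, 19.4 and 20.2 CPM in controls and 23.9, 23.2 and 16.9 CPM in Dyrk1b libraries, a log2 change of 0.00 ± 0.36 with an interval from -0.71 to 0.71. Its peak in intron 1 of 7 (170800544 to 170800815) held 22.3, 23.1 and 36.3 CPM in controls and 9.29, 15.4 and 24.6 CPM in Dyrk1b libraries. Dyrk1b libraries 1 and 2 were below all controls and Dyrk1b 3 was not, and the log2 change of -0.66 ± 0.42 (adjusted p = 0.471 by edgeR) was the lowest among the members. It was -1.10 without Dyrk1b 3 and -0.40 without Dyrk1b 1.

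Over the 8 sinusoidal endothelial peaks, 5 log2 changes were positive and 3 negative, 0 passed the test, and the median was 0.31 against 0.00 over all peaks. Summed over these peaks, controls held 215, 238 and 246 CPM and Dyrk1b libraries 272, 270 and 262 CPM. In TMM-scaled CPM every Dyrk1b sum was above every control sum, with means of 233 ± 16.4 and 268 ± 5.43 CPM and a ratio of 1.15. The sums held 183, 196 and 183 reads in controls and 205, 245 and 341 reads in Dyrk1b libraries. Scaled by the totals used for RPKM, these reads place Dyrk1b library 1 among the controls, so the groups overlap. These are descriptions with no test, since the genes were chosen with results of these data known. The list median was 0.17 without control 1 and 0.14 without Dyrk1b 1.

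**Figure D2:**
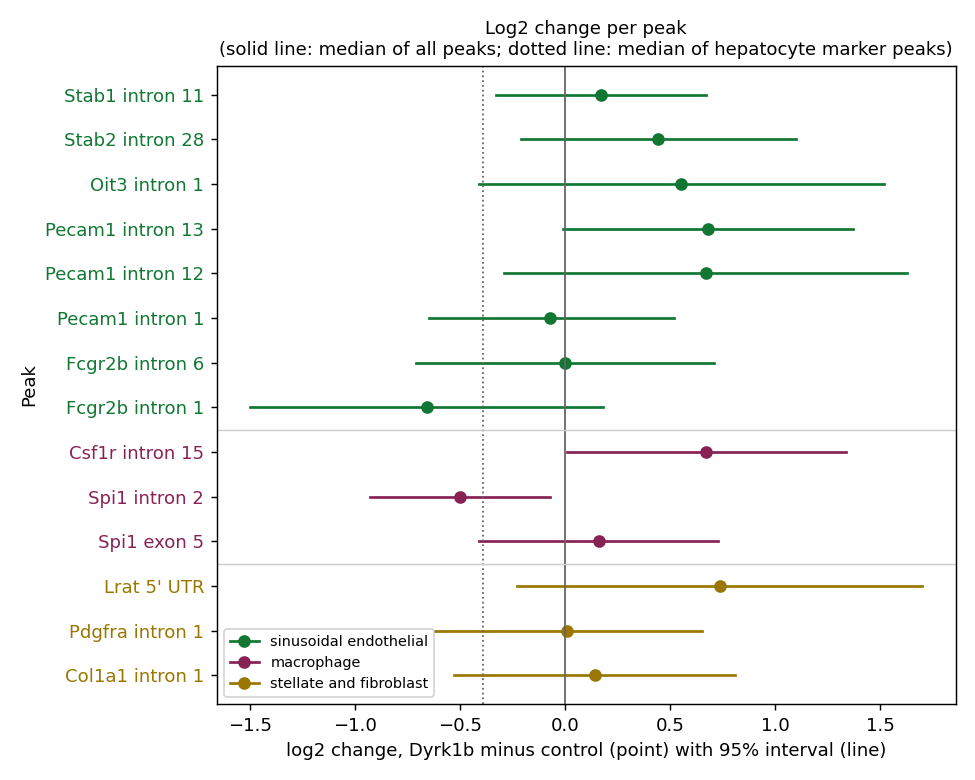
Log2 change of each member peak, Dyrk1b minus control (points), with its 95% interval (lines), built from an SE derived from edgeR's F statistic, coloured by cell type. The solid vertical line is the median of all peaks (0.00), the dotted line that of the hepatocyte marker peaks (-0.39), and 12 of the 14 intervals hold 0.

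Among the macrophage genes, the Csf1r peak and 1 of the 2 Spi1 peaks had positive log2 changes and the other Spi1 peak a negative one. Csf1r encodes the receptor for the macrophage growth factors CSF1 and IL-34, and its peak lay in intron 15 of 21 (chromosome 18, 61260501 to 61260958). Controls held 27.0, 21.9 and 24.2 CPM and Dyrk1b libraries 45.1, 32.0 and 39.9 CPM, so the groups were apart. The mean went from 24.3 ± 2.55 to 39.0 ± 6.62 CPM, a log2 change of 0.67 ± 0.33 (unadjusted p = 0.047, adjusted p = 0.348 by edgeR). It lay between 0.58 and 0.82 over 14 alternatives and passed in none, though DESeq2 gave this peak no adjusted p and so could not call it.

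Spi1 encodes PU.1, an ETS family factor needed for macrophages and B cells, and its 2 peaks lay close together in the gene. The wider peak, in intron 2 of 3 of a long transcript (chromosome 2, 90939594 to 90940669), lies 13.2 kb downstream of the start of the shorter transcript that carries the other peak. It held 128, 102 and 143 CPM in controls and 70.3, 87.1 and 102 CPM in Dyrk1b libraries. Dyrk1b library 3 reached the level of control 2, and the other two Dyrk1b libraries were below all controls. The mean went from 124 ± 20.5 to 86.5 ± 15.9 CPM, a log2 change of -0.50 ± 0.21 with the lowest p of the members (unadjusted 0.022, adjusted 0.288 by edgeR). It stayed negative in the 14 alternatives, between -0.64 and -0.31, with adjusted p from 0.219 to 0.813.
In exon 5 of 5 (90945401 to 90945930) controls held 51.6, 40.1 and 36.3 CPM and Dyrk1b libraries 46.4, 66.2 and 33.0 CPM. The highest and the lowest of the 6 were both Dyrk1b libraries. The log2 change was 0.16 ± 0.29 and fell to -0.13 without Dyrk1b 2.

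The 3 macrophage peaks together had a median of 0.16, from -0.13 without Dyrk1b 2 to 0.41 without Dyrk1b 3. Their summed CPM was 206, 164 and 203 in controls and 162, 185 and 175 in Dyrk1b libraries, which overlapped, with a ratio of means of 0.911. Spi1 intron 2 was the strongest peak in these sums.

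Where a gene had several peaks, the ratio of 1 peak to another within a library does not depend on any scaling by 1 factor per library. Loess normalization, which scales peaks by their level, can change it. In raw reads, 5 such ratios were compared by an exact two-sided permutation test, after the values had been seen. Spi1 intron 2 held 2.48, 2.55 and 3.93 times the reads of Spi1 exon 5 in controls and 1.51, 1.32 and 3.09 times in Dyrk1b libraries, a log2 difference of -0.67 (exact p = 0.3). The 2 groups overlapped, through Dyrk1b library 3. Fcgr2b intron 6 over intron 1 stood at 1.05, 0.842 and 0.556 in controls and 2.57, 1.5 and 0.688 in Dyrk1b libraries, which also overlapped (log2 difference 0.81, exact p = 0.3). For Pecam1, intron 13 over intron 1 gave a log2 difference of 0.78 (exact p = 0.4), intron 12 over intron 1 0.75 (exact p = 0.6) and intron 13 over intron 12 0.03 (exact p = 1.0). With 3 libraries against 3 the test cannot go below 0.1, and adjusted over the 5 ratios p was 0.667 to 1.0.

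Among the stellate and fibroblast genes, the largest log2 change of all members was at Lrat, the retinyl ester synthase, over the start shown above. Controls held 11.7, 15.8 and 12.1 CPM (10, 13 and 9 reads) and Dyrk1b libraries 23.9, 22.1 and 20.7 CPM (18, 20 and 27 reads). The groups were apart and varied little within, with means of 13.2 ± 2.25 and 22.2 ± 1.58 CPM. The log2 change was 0.74 ± 0.48, with an interval from -0.23 to 1.70 and an adjusted p of 0.48 by edgeR. Read numbers were the lowest of the 3 stellate and fibroblast peaks, and the level of 1.07 RPKM was the lowest of all 14 members. No member had a larger SE. The log2 change was 0.43 after loess normalization and otherwise between 0.65 and 0.90.

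Pdgfra encodes a receptor for platelet-derived growth factors on stellate cells and fibroblasts. Its peak in intron 1 of 15 (chromosome 5, 75316837 to 75317434) held 45.7, 29.2 and 33.6 CPM in controls and 53.1, 26.5 and 32.2 CPM in Dyrk1b libraries, so the controls lay within the range of the Dyrk1b libraries. Its log2 change was 0.01 ± 0.32 (interval -0.62 to 0.65), from -0.29 without Dyrk1b 1 to 0.22 without control 1.
Col1a1, the alpha 1 chain of type I collagen, had a peak in intron 1 of 50, 898 bases from its start (chromosome 11, 94827713 to 94828184). It held 19.9, 32.8 and 36.3 CPM in controls and 31.8, 26.5 and 38.4 CPM in Dyrk1b libraries, with control 1 the lowest. The log2 change was 0.14 ± 0.34 (interval -0.53 to 0.81) and was -0.08 without control 1.
The 3 peaks had a median of 0.14, which was 0.31 without control 3, and their summed CPM was 77.4, 77.7 and 82.0 in controls and 109, 75.0 and 91.4 in Dyrk1b libraries, with Dyrk1b library 2 below the controls.

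**Figure D3:**
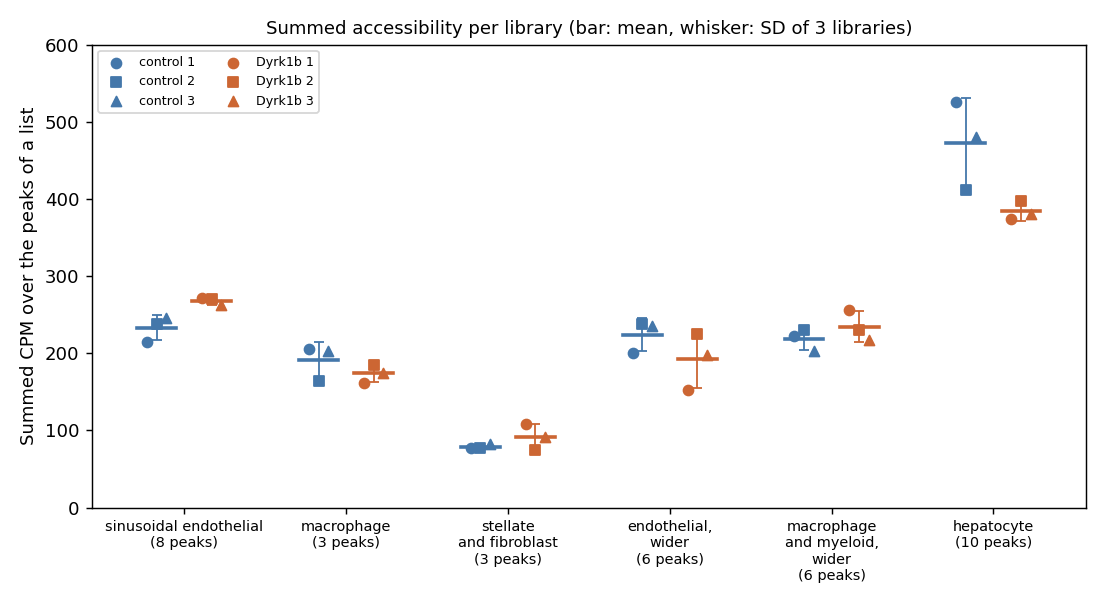
Summed CPM over the peaks of 6 gene lists in each library (points), with the mean (bar) and SD (whisker) of the 3 libraries of a group. Controls and Dyrk1b libraries are apart for the 8 sinusoidal endothelial member peaks, with Dyrk1b higher, and for the 10 hepatocyte peaks, with Dyrk1b lower, and overlap for the other 4 lists. These separations hold with TMM scaling and are lost when the same reads are scaled by the totals used for RPKM.

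Few genes of the wider endothelial, macrophage and myeloid, and stellate and fibroblast lists had peaks in the table. Of 25 further endothelial genes 4 had peaks, 6 in all, with 2 log2 changes positive and 4 negative, 0 called and a median of -0.25, opposite in sign to that of the 5 member genes. This list was not limited to sinusoidal endothelium, and Vwf alone gave the peaks at -0.63, -0.64 and 0.21, so the median leans on 1 gene. The lowest p were in intron 7 of Vwf, von Willebrand factor (-0.63 ± 0.32), from 40.5 ± 1.67 to 25.8 ± 4.75 CPM, and in exon 8 of Ptprb, a phosphatase of endothelial junctions (0.81 ± 0.45), from 14.7 ± 4.86 to 25.6 ± 8.65 CPM, and neither passed (adjusted p = 0.366 and 0.399 by edgeR). The summed CPM of these 6 peaks was 200, 238 and 235 in controls and 153, 225 and 198 in Dyrk1b libraries, which overlapped.

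Of 17 further macrophage and myeloid genes, only Cx3cr1, a chemokine receptor gene, had peaks, 6 of them, all annotated to a transcript of 167 kb, so that some may lie at neighbouring genes. They gave 4 positive and 2 negative log2 changes and 0 calls, with a median of 0.09. The peak with the lowest p, in intron 1, went from 15.7 ± 6.90 to 30.3 ± 7.72 CPM (0.93 ± 0.41, adjusted p = 0.306 by edgeR). The next, in intron 2, had a change of the other sign, from 47.5 ± 1.59 to 33.9 ± 6.09 CPM (-0.51 ± 0.29, adjusted p = 0.42), and the groups overlapped at neither. Of 17 further stellate and fibroblast genes only Ecm1, a matrix protein gene, had a peak, at -0.40 ± 0.34. Among 11 genes for ligands and partners of the members, 7 had 13 tested peaks, 5 positive and 8 negative with a median of -0.06 and 0 calls. The lowest p there were at Pdgfc, a ligand of the PDGF receptors (0.61 ± 0.42), and at the start of Csf1, the ligand of CSF1R (-0.34 ± 0.25), which went from 64.0 ± 8.63 to 49.8 ± 8.67 CPM. At Csf1 the groups did not overlap in CPM but did in deposited RPKM.

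Markers of hepatocytes and of other cells were read in the same libraries. Of 14 hepatocyte genes 8 had peaks, 10 in all, with 9 negative log2 changes, 0 called and a median of -0.39. At an unadjusted p under 0.05 by edgeR 3 of the 10 were lower, as were 7.72% of all peaks. Of the 10 peaks 5 were promoter peaks, against 3 of the 14 member peaks. Over all promoter peaks 43.1% of log2 changes were positive and the median was -0.07. The summed CPM of the 10 hepatocyte peaks was 526, 411 and 480 in controls and 374, 398 and 380 in Dyrk1b libraries. With this scaling the groups were apart, by little between control 2 and Dyrk1b library 2. Scaled by the totals used for RPKM, the same reads (449, 338 and 357 in controls, 282, 361 and 495 in Dyrk1b libraries) overlap between the groups. The lowest p were in intron 5 of Ass1, an enzyme of the urea cycle (-0.82 ± 0.31, adjusted p = 0.235 by edgeR), and at the start of Apoc3, an apolipoprotein (-0.69 ± 0.31, adjusted p = 0.311 by edgeR). A second Apoc3 peak, 193 bases upstream of that start, had -0.03 ± 0.31 with groups that overlapped. The list median was -0.20 without Dyrk1b 2. The 14 member peaks summed to 498, 480 and 531 CPM in controls and 543, 530 and 528 CPM in Dyrk1b libraries, which overlapped. Divided by the hepatocyte sum, this gave 0.947, 1.17 and 1.11 in controls and 1.45, 1.33 and 1.39 in Dyrk1b libraries. The ratio was thus higher in each Dyrk1b library than in any control. In TMM-scaled CPM most of the gap came from the hepatocyte sum, whose ratio of means was 0.813, against 1.06 for the members. How the gap divides between these sums depends on the scaling per library, while the ratio itself does not. The part of the unequal share of promoter peaks in this ratio was not tested.

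The remaining lists were small. The B cell factor genes Ebf1 (1.37 ± 0.44) and Pax5 (0.56 ± 0.39) were 2 of 6 in their list, and the neutrophil gene S100a8 (0.52 ± 0.38) 1 of 7. Of 10 T and NK cell genes 3 had 5 peaks, 3 positive and 2 negative, with the lowest p at Cd4 (-0.60 ± 0.32) and Cd247 (0.55 ± 0.36). None of these peaks passed by edgeR. Spi1 and Fcgr2b are also used by B cells, and the B cell sum was 23.4, 31.6 and 40.3 CPM in controls and 45.1, 65.1 and 67.6 CPM in Dyrk1b libraries. The part of these markers in the values at the members was not tested.

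Peaks of other genes near the members were divided evenly. Within 100 kb of a member peak lay 33 peaks of other genes, with 17 positive log2 changes, 0 called, 7 at an unadjusted p under 0.05, where 14.2% of all peaks are, and a median of 0.01. The lowest p among them was at the start of Ddx5, an RNA helicase gene beside Pecam1 (-0.73 ± 0.23, adjusted p = 0.169 by edgeR), from 97.4 ± 13.9 to 58.2 ± 8.10 CPM. Near Spi1 it was in intron 24 of Madd (0.73 ± 0.28, adjusted p = 0.255), opposite in sign to Spi1 intron 2. A weak peak with no gene symbol near Pdgfra had -1.71 ± 0.63, from 21.1 ± 12.2 to 5.64 ± 5.84 CPM (adjusted p = 0.228).

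The authors' deposited table gives the 14 peaks the same signs apart from Pecam1 intron 1 and Fcgr2b intron 6, for which its log2 ratios of mean RPKM are 0.12 and 0.14. For Lrat it gives 0.91 (FDR 0.526), for Pecam1 intron 13 0.90 (FDR 0.463), for Csf1r 0.81 (FDR 0.466) and for Spi1 intron 2 -0.32 (FDR 0.745). RPKM values divide by larger library totals, of which reads in peaks were an unequal share. The share was 2.22, 1.89 and 1.97% in controls and 1.67, 2.34 and 2.62% in Dyrk1b libraries. Under that scaling the median of all peaks was 0.17 in place of 0.00, 65.2% of all peaks and 12 of 14 members were positive, and the member median was 0.33. Of peaks with an unadjusted p under 0.05, 54.5% were lower with TMM and 13% with that scaling.

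**Figure D4:**
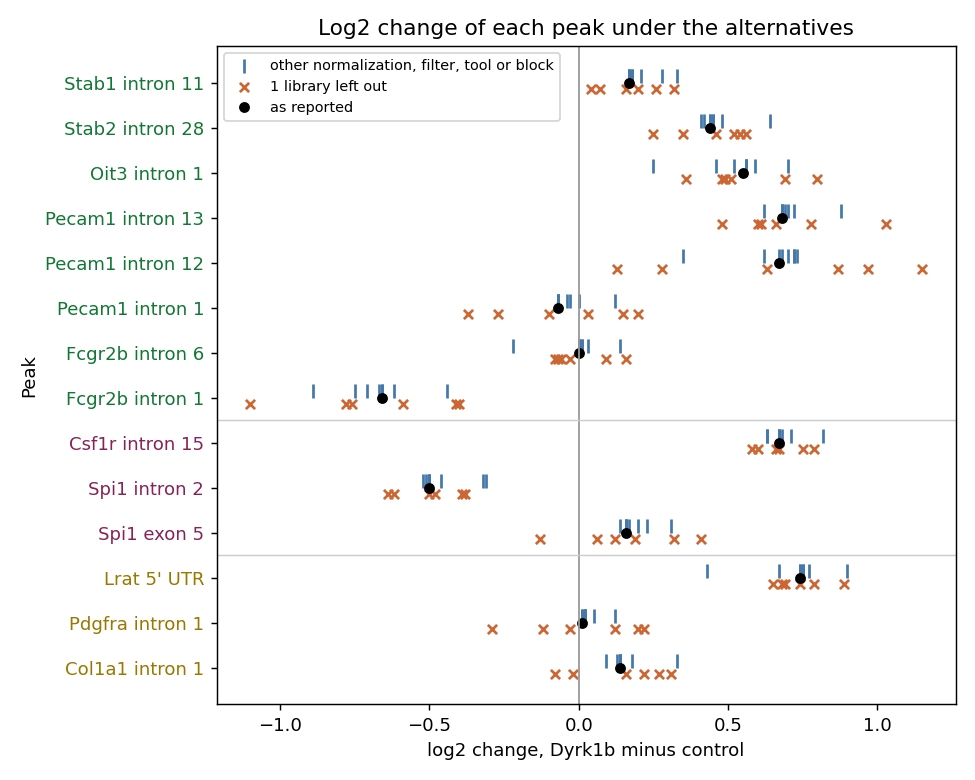
Log2 change of each member peak as reported (black), under another normalization, filter, tool or the replicate block (blue ticks), and with 1 library left out (orange crosses). Csf1r and Lrat stay above 0 and Spi1 intron 2 and Fcgr2b intron 1 below 0, while Pecam1 intron 1, Fcgr2b intron 6, Spi1 exon 5, Pdgfra and Col1a1 fall on both sides.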

How the data were processed

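The authors deposited 1 table of merged peaks with read counts and RPKM values per peak and library, and per the file headers also a log2 ratio of mean RPKM, a p-value and an FDR per peak. Counts are whole reads and none is under 1, so an empty peak may stand as 1. Tools listed in the submitters' processing notes are Bowtie2, ChIPseeker and DiffBind, with the build mm10. Only 3.38% of 10551 symbols matched by chromosome to a RefSeq GRCm38 list had a start under 2 kb from the one given there, so coordinates are printed as deposited, and the build they belong to is not known. How peaks were called, duplicates handled or reads shifted is not given in the sources used here. Peak names run to 30387, and only the 22412 peaks of the table were used.

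The count test was edgeR 4.0.16 under R 4.3.3 (TMM, filterByExpr, which left 22051 peaks, quasi-likelihood test, no covariate, Benjamini-Hochberg over all peaks tested, threshold 0.05). DESeq2 1.42.0, limma 3.58.1 (trend on log2 CPM, prior count 2) and other scalings were alternatives. The fit was tested on simulated data. The deposited RPKM values correspond to library totals of 38.05 M to 48.3 M reads. No libraries were near copies, since chi-square over degrees of freedom was 2.19 to 4.39 for each pair. The naming rule took every member peak, the 2 peaks with the lowest p in each of 9 further lists and the lowest near each member, of which some are left out for brevity and the values of 1 list are not reported here. The rule does not cover Alb, Fgb, the second Cx3cr1 peak, the second Apoc3 peak or the hepatocyte genes Ttr and Cps1, which were picked once the values had been seen. Members and lists were chosen with earlier results of these data known.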

Additional observations from a re-analysis of the deposited data

How the results depend on the processing

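Under 14 alternatives 0 member peaks were called, and 9 to 12 of 14 log2 changes were positive. DESeq2 could not call 12 of the 14 members, since it gave them no adjusted p. Over all peaks, 2 were called higher and 5 lower as reported, 0 higher after loess normalization, 1 and 0 when scaled by the totals used for RPKM, 0 and 18 with DESeq2, 0 and 2 with limma-trend, and 2 lower by library size only. With 1 library left out these counts were 0 to 6 higher and 0 to 9 lower. Scaling to those totals moved the sinusoidal endothelial median to 0.48 and the hepatocyte median to -0.24, and with 1 library left out they lay between 0.14 and 0.44 and between -0.45 and -0.20. The macrophage median was -0.13 without Dyrk1b 2.

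Signs turned at 5 peaks, all with a log2 change within 0.16 of 0. Fcgr2b intron 6 was 0.00 with DESeq2, with its size factors and with no filter, 0.03 by library size only, 0.14 with the library totals, 0.01 with limma-trend, 0.09 without control 1 and 0.16 without Dyrk1b 3. Pecam1 intron 1 was 0.12 with the library totals, 0.03 without control 1, 0.20 without control 3 and 0.15 without Dyrk1b 1. Pdgfra was -0.12 without control 2, -0.03 without control 3 and -0.29 without Dyrk1b 1, Col1a1 -0.08 without control 1 and -0.02 without Dyrk1b 3, and Spi1 exon 5 -0.13 without Dyrk1b 2. The highest values with 1 library left out were 0.22 for Pdgfra, 0.31 for Col1a1 and 0.41 for Spi1 exon 5, and the lowest for Pecam1 intron 1 was -0.37 and for Fcgr2b intron 6 -0.08. The cause was not tested.

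Libraries share replicate numbers across groups, but same-numbered libraries did not deviate together (correlations of -0.014 to 0.007). With the replicate number as a block, 2 peaks were higher and 5 lower, 0 members were called, their median was 0.17 and Fcgr2b intron 6 stood at 0.01. The member peaks held 4 to 133 reads per library, and their standard errors were 0.21 to 0.48.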
